A study of Mus musculus with 44 samples.

Results

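The genes described here are those of the gastric hormones other than histamine: somatostatin (Sst), ghrelin (Ghrl) and the enzyme that acylates it (Mboat4), gastrin (Gast), the serotonin-making enzymes (Tph1 and Ddc) and amylin (Iapp). They were chosen by name, and their counts were summed over the transcripts of each gene, so they are 7 of the 31484 genes with a row in the 44 libraries. RNA came from the gastric corpus mucosa of female BalbC mice aged 13 months. WT mice or mice lacking the H+/K+ATPase beta subunit in the whole body (KO, gene Atp4b) were given the gastrin receptor antagonist netazepide (NTZ, earlier named YF) by injection under the skin or its vehicle polyethylene glycol (PEG). The KO mice gave 13 PEG and 11 NTZ libraries (KO/PEG and KO/NTZ) and the WT mice gave 11 PEG and 9 NTZ libraries (WT/PEG and WT/NTZ). The KO/PEG group holds more libraries than the mice the study describes for it; its 13 libraries carry 13 animal numbers, and each was counted as a sample. KO mice lack a working proton pump in their parietal cells from birth, and so have low gastric acid and high circulating gastrin. In the WT libraries Atp4b was between 2139 and 5738 CPM (counts scaled to a library total of 1000000), and in the KO libraries between 2.28 and 40.6 CPM, so every library matched its genotype label.

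Somatostatin is released by D cells and restrains gastrin, histamine and acid secretion. Ghrelin is made by endocrine cells of the corpus and stimulates appetite, and its octanoylation by Mboat4 (GOAT) is needed for binding to its receptor. Gastrin is made by G cells of the antrum, next to the corpus, and acts on Cckbr on ECL and parietal cells. Serotonin is made from tryptophan by Tph1 and then Ddc in enterochromaffin cells, and in rodents also in mast cells. Amylin is co-secreted with insulin in the pancreas and has been found in some gastric endocrine cells.

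Because a biopsy is a mixture of cells, fewer cells of a type and less RNA per cell cannot be told apart. Library totals were between 6065084 and 21945124 estimated counts, and a floor of 3 counts, for counting error only, corresponded to between 0.137 and 0.495 CPM. The libraries differed in one further way that moved with genotype: the length slope, which is the slope, against log2 transcript length, of a library's deviation in log2 CPM from the mean of all libraries, was between 0.053 and 0.325 in WT libraries and between -0.298 and 0.180 in KO libraries. Short transcripts were thus relatively more abundant in KO libraries, and 23 of 24 KO libraries lay below every WT library. In a fit with the slope as a covariate, genotype and slope can therefore hardly be told apart. Genotype differences from that fit, given below, carry this limit whether they shrink, grow or change sign. The mitochondrial share of counts was 5.83 to 11.8% in WT and 1.88 to 14.5% in KO libraries.

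The 7 genes differed widely in level. Ghrl was by far the most abundant, with between 16472 and 93590 counts in a library. Sst followed, with 527 to 11801 counts, then Ddc with 51 to 742, Mboat4 with 31 to 204 and Tph1 with 6 to 119. Gast had 0 to 515 counts and was at 0 in 25 of 44 libraries. Iapp had 0 to 3 counts and reached 3 counts in 3 libraries. Per transcript length, the mean level over the 44 libraries was 8349 TPM (counts per base of transcript, scaled to a sum of 1000000) for Ghrl, 551 TPM for Sst, 14.3 TPM for Ddc, 4.41 TPM for Mboat4 and 1.67 TPM for Tph1. The range of Ghrl over libraries overlapped with that of no other member, while the ranges of Ddc and Mboat4, and of Mboat4 and Tph1, overlapped. Gast had a mean of 6.78 TPM, a median of 0 and a highest value of 98.7 TPM, which was above the lowest Sst library at 91.7 TPM, and Iapp had a mean of 0.0927 TPM. Gast and Iapp did not pass the filter on low counts, and 5 of 7 members were tested across all genes.

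**Figure D1:**
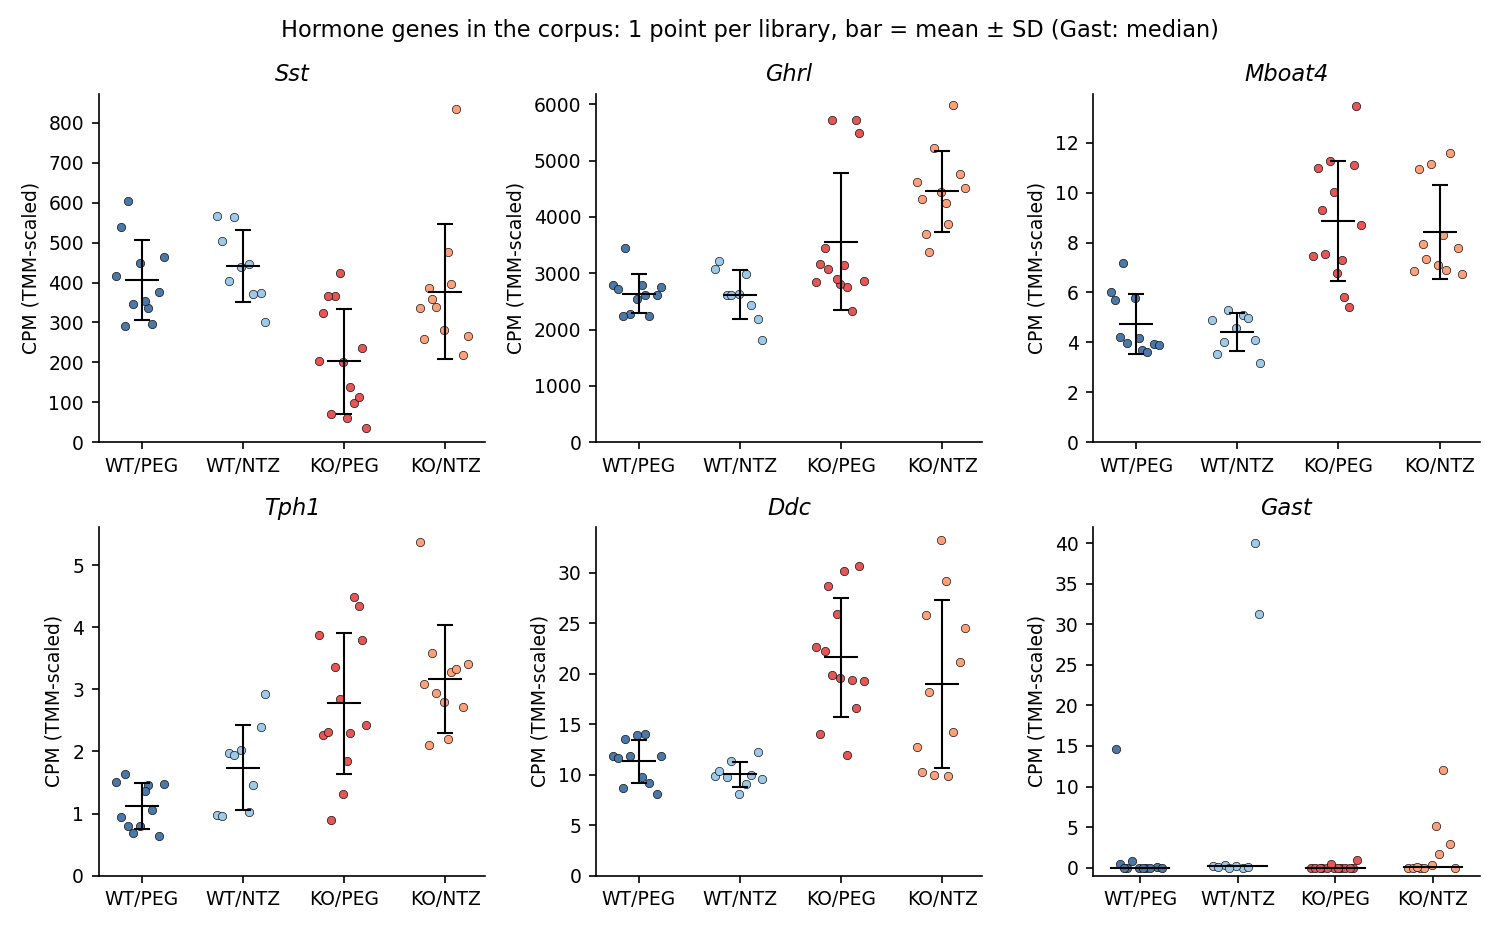
CPM of 6 of the genes in each library, by group, on linear axes. Points are libraries and bars are means ± SD, except for Gast, where lines are medians. Most KO/PEG libraries were low for Sst, the KO groups were high for Mboat4, Tph1 and Ddc, and Gast was near 0 except in a few libraries of several groups.

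Sst, Ghrl and their transcripts are shown in sequence first, because the results turn on which bases reads were assigned to. The last 14 codons of the Sst reading frame, which make the short active form of somatostatin, lie in a single exon at chr16:23889729-23889773 (GRCm38, minus strand), and the 2 cysteine codons whose disulphide bridge closes the ring are in capitals. Ghrl (chr6:113716119-113719880, minus strand) has transcripts that differ in the ghrelin-coding exons. Ghrl-205 uses a splice site 3 bases downstream of that of Ghrl-201 and so lacks codon 37, counted from the start codon, a glutamine (capitals); the intron within the stretch shown is left out. Ghrl-207 begins at a first exon of 63 bases inside an intron, chr6:113717630-113717692, and shares its last 2 exons, 260 bases, with Ghrl-201. It does not contain the exons that code for ghrelin. Its annotated start codon is in capitals, and the 100 bases before its start, chr6:113717693-113717792, hold no TATAA on either strand, a motif found in the same window of 10.2% of the 32851 RefSeq starts of the assembly (GRCm38.p6).
Sst, last codons: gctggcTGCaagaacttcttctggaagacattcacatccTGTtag
Ghrl-201, exon junction: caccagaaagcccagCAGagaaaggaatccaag
Ghrl-205, exon junction: caccagaaagcccagagaaaggaatccaag
Ghrl-207, first exon: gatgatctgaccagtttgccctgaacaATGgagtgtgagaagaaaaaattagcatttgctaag
Ghrl-207, upstream: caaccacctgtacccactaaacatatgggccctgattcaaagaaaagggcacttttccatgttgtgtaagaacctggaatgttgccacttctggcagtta

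Somatostatin was lower in KO/PEG than in WT/PEG and in KO/NTZ mice. Sst (chr16:23889573-23890958) had a lowest, median and highest value of 290.4, 376 and 605 CPM in WT/PEG, and of 302, 439 and 567 CPM in WT/NTZ. In KO/PEG these were 35.6, 200.1 and 424 CPM, and in KO/NTZ 218, 338 and 834 CPM. Of the 13 KO/PEG libraries, 9 were below every WT/PEG library and the other 4 lay within the WT/PEG range, while all 11 KO/NTZ libraries were above the KO/PEG median and 1 of them was the highest of the 44. The log2 fold change of KO/PEG versus WT/PEG was -1.002 ± 0.27 (SE, edgeR adjusted p = 0.000947), a level 0.499 times that of WT/PEG. In this comparison 74.7% of all 14901 genes tested passed the same threshold, 37.5% higher and 37.2% lower in KO/PEG, and all 5 tested members were among them, with Sst lower and the other 4 higher. No member had all KO/PEG libraries on one side of all WT/PEG libraries, while 5.46% of all genes had them above and 8.88% below. For KO/NTZ versus KO/PEG the log2 fold change of Sst was 0.89 ± 0.27 (edgeR adjusted p = 0.0368), and 5.56% of all genes tested passed, 2.97% higher and 2.6% lower in KO/NTZ. Sst was the only 1 of the 5 tested members that passed there. Between KO/NTZ and WT/NTZ the Sst difference did not pass (-0.23 ± 0.29, edgeR adjusted p = 0.488), and with the length slope as a covariate it was larger and still did not pass (-1.14 ± 0.46, edgeR adjusted p = 0.0737). Neither did the difference between WT/NTZ and WT/PEG (0.12 ± 0.29, edgeR adjusted p = 0.962), where the SE rests on a spread shared by all 4 groups. With only the WT groups in the fit it was 0.14 ± 0.13 (edgeR adjusted p = 0.617). Both calls had limits. The genotype call was lost within animals numbered 100 or above, given next, and held under the other 15 alternatives, with -2.02 ± 0.49 (edgeR adjusted p = 0.00152) when the length slope was a covariate. The NTZ call was lost with only the 2 KO groups in the fit (0.89 ± 0.33, edgeR adjusted p = 0.171), without the low-count filter (adjusted p = 0.0542), at the transcript level (adjusted p = 0.0630) and without the KO libraries of a slope under -0.2 (adjusted p = 0.141), with a range of 0.00927 to 0.171 over 16 alternatives by edgeR, limma-trend and DESeq2. The NTZ effect on Sst was 0.77 ± 0.40 log2 larger in KO than in WT mice, which did not pass (edgeR adjusted p = 0.457), as for the other 4 tested members, beside 0.96% of all genes.

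The spread of Sst within KO/PEG went with the animal numbers that the labels give. What a number stands for is not given in the sources used here. After group means were removed, Sst also moved with the mitochondrial share (r = -0.49) and the length slope (r = -0.43) over the 44 libraries. In the 6 KO/PEG libraries numbered below 100, Sst was 35.6, 60.5, 70.4, 98.1, 112.8 and 200.1 CPM. In the 7 numbered 100 or above it was 139.4, 204.4, 237.2, 323.0, 366.7, 367.0 and 424.4 CPM. The mitochondrial share was 2.96 to 14.5% in the first set and 2.39 to 6.67% in the second, and the length slope -0.298 to 0.180 and -0.297 to -0.0134. The part of either measure in the Sst values was not tested. The sets overlapped in 2 libraries, 1 of each, and differed by -1.62 ± 0.29 log2 with all 44 libraries in the fit (edgeR adjusted p = 0.00743; 1.14% of genes passed). With the 13 KO/PEG libraries alone the difference was -1.59 ± 0.37 and did not pass (edgeR adjusted p = 0.353). This comparison was chosen after the values were seen. Ghrl (-0.18 ± 0.18), Mboat4 (-0.32 ± 0.18), Tph1 (-0.22 ± 0.29) and Ddc (0.08 ± 0.23) did not pass between the same sets, with edgeR adjusted p between 0.264 and 0.856. All WT/PEG animals were numbered 100 or above and 10 of 11 KO/NTZ animals below 100, so that number and group cannot be fully told apart. Within animals numbered 100 or above, KO/PEG differed from WT/PEG in Sst by -0.43 ± 0.20 (edgeR adjusted p = 0.0501). Within animals numbered below 100, KO/NTZ differed from KO/PEG by 2.02 ± 0.34 (edgeR adjusted p = 0.0112).

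**Figure D2:**
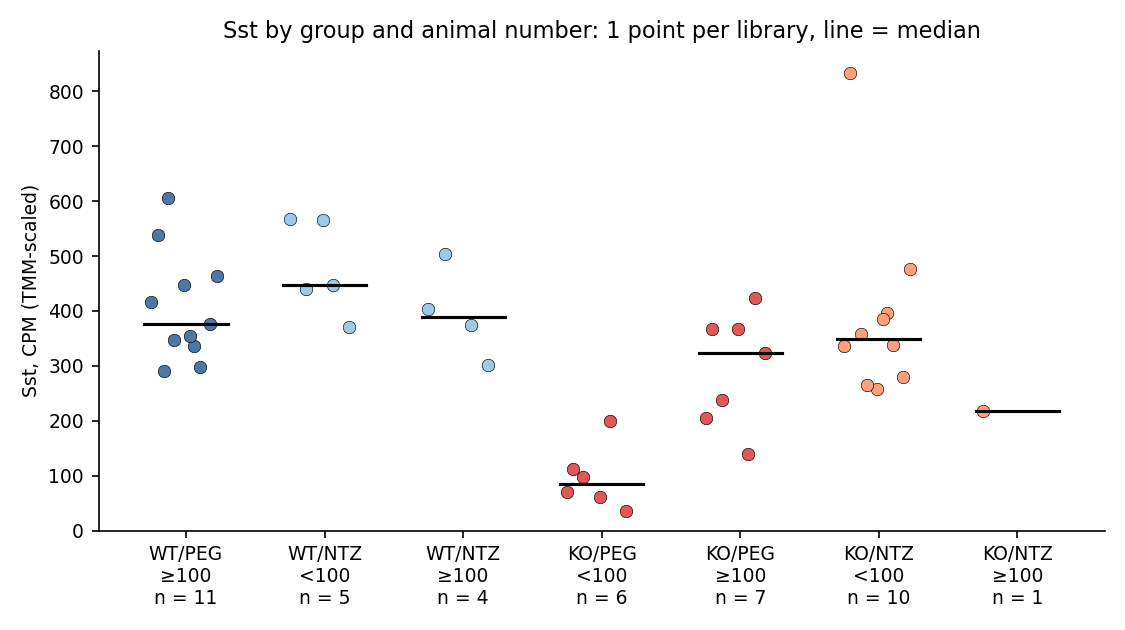
Sst in CPM in each library, by group and by whether the animal number is below 100 or 100 or above; lines are medians. The KO/PEG animals numbered below 100 are the lowest set, between 35.6 and 200.1 CPM, and the KO/NTZ animals numbered below 100 lie between 257 and 834 CPM.

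Among the 5 genes whose library-to-library pattern was most like that of Sst, after each group's mean was removed, were Fabp3 (r = 0.84), Pgc (r = 0.80), Msra (r = 0.79) and Ak1 (r = 0.79), over 44 libraries. Pgc is the pepsinogen C gene of chief and mucous neck cells, and Fabp3 binds fatty acids. These values are descriptions of libraries that share depth and composition. In KO/PEG, Pgc had a median of 4429 CPM in the animals numbered below 100 and of 12647 CPM in the others (-1.83 ± 0.45 log2, edgeR adjusted p = 0.0388 with all libraries and 0.366 with KO/PEG alone). Its part in the Sst values was not tested.

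Of the 5 somatostatin receptor genes and the related peptide gene Cort, Sstr2, the receptor of ECL and parietal cells, was the 1 that passed the filter on low counts. Sstr2 had a mean of 6.79 CPM in KO/PEG and 5.19 CPM in KO/NTZ beside 16.7 CPM in WT/PEG and 15.3 CPM in WT/NTZ, and was lower in KO/PEG than in WT/PEG (-1.29 ± 0.21 log2, edgeR adjusted p = 8.12e-07). It did not pass between KO/NTZ and KO/PEG (-0.36 ± 0.22, edgeR adjusted p = 0.279). Sstr3 reached 18 counts in a library, Sstr1 7, Cort 7, Sstr5 3 and Sstr4 2.

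Ghrelin rose in KO mice by the sum of its transcripts, and in KO/PEG the call was lost without the transcript Ghrl-207. Ghrl had a lowest, median and highest value of 2238, 2622 and 3448 CPM in WT/PEG, and of 1815, 2618 and 3211 CPM in WT/NTZ. In KO/PEG these were 2322, 3074 and 5728 CPM, and in KO/NTZ 3380.0, 4441 and 5984 CPM. The KO/PEG group overlapped with WT/PEG in 9 of 13 libraries, with 3 libraries at 5499 to 5728 CPM, whose slopes were -0.278 to -0.298, and the other 10 at or below 3449 CPM, whereas all 11 KO/NTZ libraries were above every WT/NTZ library. The same held for 14.4% of all genes tested. The log2 fold change of Ghrl was 0.43 ± 0.13 for KO/PEG versus WT/PEG (edgeR adjusted p = 0.00347) and 0.77 ± 0.15 for KO/NTZ versus WT/NTZ (edgeR adjusted p = 1.38e-05). In the comparison under NTZ, 72.4% of all genes tested passed, and 4 of 5 tested members did. KO/NTZ versus KO/PEG gave 0.33 ± 0.13 and did not pass (edgeR adjusted p = 0.121), and WT/NTZ versus WT/PEG gave -0.01 ± 0.14 (edgeR adjusted p = 0.994). No member passed between the WT groups, where 1.03% of all genes did.

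Ghrl-207 was almost absent from WT libraries and made up a large and variable share of Ghrl in KO libraries. Its share of Ghrl estimated counts had a lowest, median and highest value of 0, 0.0966 and 0.189% in WT/PEG, and of 0, 0.0898 and 0.247% in WT/NTZ. The KO/PEG shares were 0.532, 7.55 and 37.5%, and in KO/NTZ 2.38, 16.9 and 54.9%. All 24 KO libraries were thus above all 20 WT libraries. How many other transcripts separate the genotypes in this way was not counted. Tested as a transcript, Ghrl-207 differed by 7.73 ± 0.85 log2 between KO/PEG and WT/PEG (edgeR adjusted p = 7.13e-10; 53.5% of the 30782 transcripts tested passed) and by 8.51 ± 0.96 between KO/NTZ and WT/NTZ (edgeR adjusted p = 2.77e-09; 56.8% passed). Ghrl-201, the most abundant transcript with 65.2 to 74.8% of Ghrl counts in the 4 groups, differed by 0.23 ± 0.13 between KO/PEG and WT/PEG and did not pass (edgeR adjusted p = 0.141). Between KO/NTZ and WT/NTZ it was higher by 0.40 ± 0.14 (edgeR adjusted p = 0.0170). With Ghrl-207 left out of the sum, Ghrl differed by 0.20 ± 0.13 between KO/PEG and WT/PEG (edgeR adjusted p = 0.175) and by 0.39 ± 0.14 between KO/NTZ and WT/NTZ, which passed (edgeR adjusted p = 0.0142). Ghrl-207 was left out after its share was seen, and doing so lowers the KO sums more than the WT sums.

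The share of Ghrl-207 in KO libraries moved with the length slope. After group means were removed, Pearson's r was -0.71 and Spearman's rho -0.83 over 24 KO libraries (permutation p = 1e-05 for each, the smallest that 100000 permutations can give, and the same after Benjamini-Hochberg adjustment over 2 relations), and r was -0.77 without the 2 libraries farthest from the median slope. One KO/PEG library, number 46, had the highest slope of the KO libraries and a mitochondrial share of 14.5%, and without it r was -0.80 over 23 libraries. Ghrl-207, with 323 bases, is the shortest of the 4 transcripts named, and it shares all but its first exon with Ghrl-201. Kallisto, the program that estimated the counts, divides reads between transcripts that share sequence, and the table holds no coverage per exon. Its part in the Ghrl-207 values was not tested. With the length slope as a covariate in the fit, Ghrl changed sign between KO/PEG and WT/PEG (-0.18 ± 0.19, edgeR adjusted p = 0.497) and no longer passed between KO/NTZ and WT/NTZ (0.20 ± 0.19, edgeR adjusted p = 0.485).

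**Figure D3:**
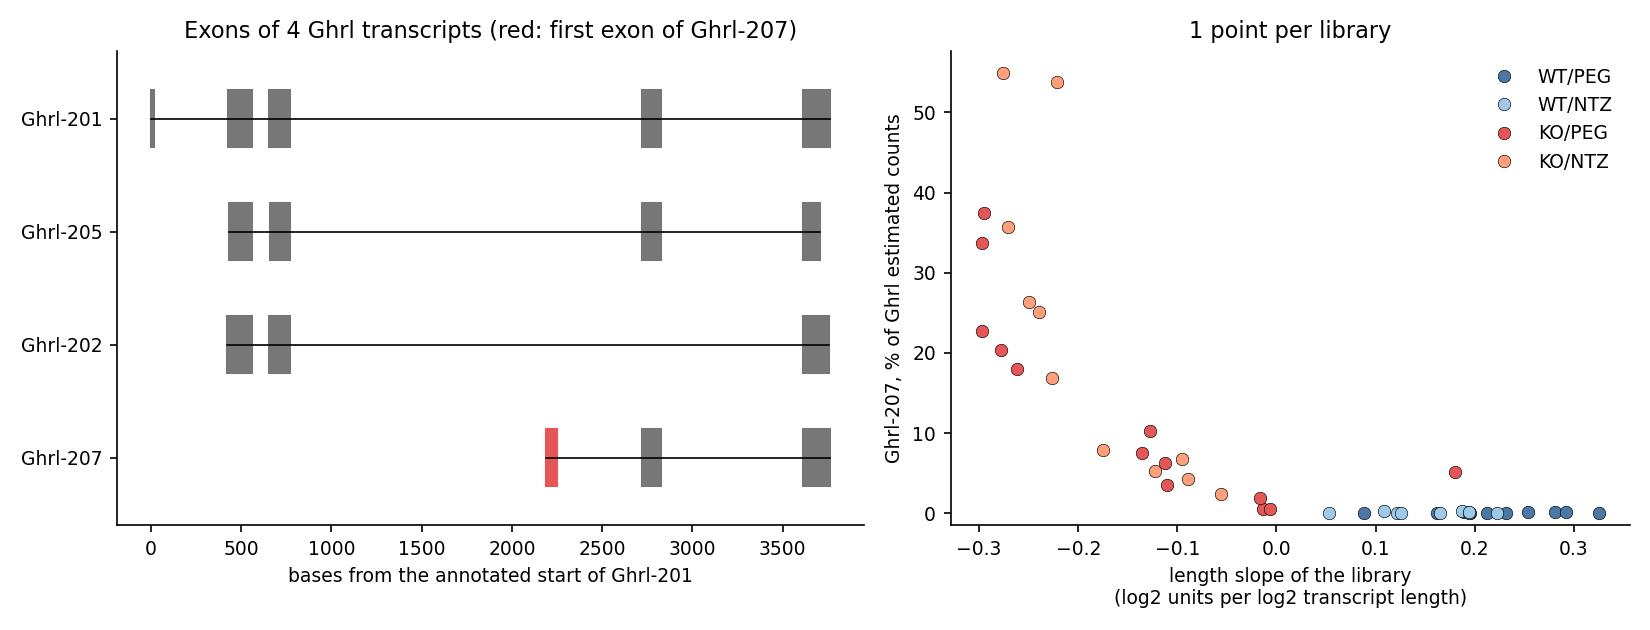
Left, exons of 4 Ghrl transcripts as boxes, drawn to scale in bases from the annotated start of Ghrl-201, with the first exon of Ghrl-207 in red. Right, the share of Ghrl estimated counts given to Ghrl-207 against the length slope, 1 point per library; WT libraries lie at or below 0.247% and KO libraries reach 54.9%.

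The glutamine-lacking form was a smaller part of the full-length Ghrl transcripts in KO libraries. Ghrl-205 as a share of Ghrl-201 and Ghrl-205 together was 18.5% ± 1.09 in KO/PEG (SD, n = 13) and 17.4% ± 1.77 in KO/NTZ (n = 11) beside 22.5% ± 1.11 in WT/PEG (n = 11) and 21.7% ± 0.73 in WT/NTZ (n = 9). The KO/NTZ and WT/NTZ libraries did not overlap, and the KO/PEG and WT/PEG libraries overlapped by a fraction of a percent, with a highest KO/PEG value of 20.4% and a lowest WT/PEG value of 20.3%. The share also moved with the length slope, with 14.1 to 18.3% in the 11 KO libraries of a slope under -0.2 and 18.4 to 20.4% in the other 13. The share itself was not tested, and how many other transcript shares separate the genotypes in this way was not counted. The pair differ at both ends of their annotated sequence as well as at the codon, and as transcripts Ghrl-205 did not pass between KO/PEG and WT/PEG (-0.14 ± 0.14, edgeR adjusted p = 0.425).

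The ghrelin acylating enzyme was higher in both KO groups than in their WT groups. Mboat4 (chr8:34115030-34125182, plus strand), with 1 annotated transcript, had a lowest, median and highest value of 3.61, 4.17 and 7.19 CPM in WT/PEG and of 3.16, 4.57 and 5.29 CPM in WT/NTZ. Its KO/PEG values were 5.42, 8.71 and 13.5 CPM, and in KO/NTZ 6.74, 7.77 and 11.6 CPM. Above the whole WT/PEG range lay 10 of the 13 KO/PEG libraries, and all 11 KO/NTZ libraries were above every WT/NTZ library, as were 14.4% of all genes tested. Mboat4 rose by 0.89 ± 0.14 log2 in KO/PEG versus WT/PEG (edgeR adjusted p = 5.25e-07) and by 0.93 ± 0.16 in KO/NTZ versus WT/NTZ (edgeR adjusted p = 1.90e-06). NTZ made no difference that passed in KO (-0.08 ± 0.14, edgeR adjusted p = 0.738) or WT mice (-0.12 ± 0.16, edgeR adjusted p = 0.949). Both genotype calls were lost with the length slope as a covariate (0.47 ± 0.21, edgeR adjusted p = 0.0898, and 0.53 ± 0.22, edgeR adjusted p = 0.0763). Slope and genotype can hardly be told apart in that fit.

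Mboat4 and Ghrl were each among the genes whose library pattern was most like that of the other. Over all 44 libraries with group means removed r was 0.67, which made Ghrl the gene most like Mboat4 and Mboat4 the second most like Ghrl. Next to Mboat4 came Ndrg2 (r = 0.67), Chga (r = 0.66), the chromogranin A gene of endocrine granules, Syp (r = 0.65), the synaptophysin gene of endocrine vesicles, and Il11ra1 (r = 0.62). Next to Ghrl came Resp18 (r = 0.68) and Scgn (r = 0.65), both expressed in endocrine cells, and then Tomm40l (r = 0.64) and Med11 (r = 0.64).

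Among 20 relations computed between the 5 tested members, within WT and within KO libraries, 3 passed after Benjamini-Hochberg adjustment. Sst and Ghrl were related in WT libraries (r = 0.80, permutation p adjusted 0.0006; rho = 0.78, permutation p adjusted 0.003; n = 20), with r = 0.69 without the 2 libraries farthest from the median of Sst. Sst and Mboat4 were also related in WT libraries (r = 0.71, permutation p adjusted 0.00633; rho = 0.62, permutation p adjusted 0.0413), with r = 0.55 without 2 libraries. In KO libraries Ghrl and Mboat4 were related (r = 0.73, permutation p adjusted 0.0007; rho = 0.62, permutation p adjusted 0.018; n = 24), with r = 0.72 without 2 libraries. In WT libraries the relation of Ghrl and Mboat4 did not pass (r = 0.54, permutation p adjusted 0.0562; rho = 0.40, permutation p adjusted 0.231), with r = 0.25 without 2 libraries, and in KO libraries r was 0.28 for Sst and Ghrl and did not pass. The WT and KO values were not tested against each other. Over the 44 libraries, with group means removed, r with the length slope was -0.43 for Sst, -0.49 for Ghrl and -0.31 for Mboat4. With the mitochondrial share it was -0.49, -0.40 and -0.16. The part of either measure in these relations was not tested. A pair of the WT libraries carries the same animal number, so n counts libraries and not mice.

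Of the other ghrelin genes, the receptor Ghsr was at 0 counts in all 44 libraries and Leap2, the peptide that blocks it, reached 4 counts. Pcsk1, the convertase that cuts proghrelin, did not pass between KO/PEG and WT/PEG (0.35 ± 0.22, edgeR adjusted p = 0.142) and fell in KO/NTZ versus KO/PEG by 1.65 ± 0.23 log2 (edgeR adjusted p = 8.88e-06), with means of 9.01 CPM in KO/PEG and 2.79 CPM in KO/NTZ beside 7.05 CPM in WT/PEG and 5.92 CPM in WT/NTZ.

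Serotonin synthesis genes were higher in KO mice. Tph1 (chr7:46644641-46672537), the rate-limiting hydroxylase outside the nervous system, had a lowest, median and highest value of 0.640, 1.06 and 1.63 CPM in WT/PEG and of 0.960, 1.95 and 2.92 CPM in WT/NTZ. KO/PEG values were 0.889, 2.43 and 4.48 CPM, and in KO/NTZ 2.11, 3.09 and 5.38 CPM. These are 6 to 119 counts in a library. Above the whole WT/PEG range lay 11 of the 13 KO/PEG libraries, and 7 of 11 KO/NTZ libraries were above every WT/NTZ library. The difference was 1.30 ± 0.23 log2 for KO/PEG versus WT/PEG (edgeR adjusted p = 3.41e-06), and it passed under all 16 alternatives, with values of 0.93 to 2.25. KO/NTZ versus WT/NTZ gave 0.85 ± 0.24 (edgeR adjusted p = 0.00208), a call lost with the length slope as covariate, without the KO libraries of a slope under -0.2 and at the transcript level (edgeR adjusted p = 0.330, 0.0537 and 0.123). In WT/NTZ 5 of 9 libraries exceeded the highest WT/PEG value, but the difference of 0.63 ± 0.25 did not pass (edgeR adjusted p = 0.382), nor did that between KO/NTZ and KO/PEG (0.19 ± 0.21, edgeR adjusted p = 0.580).

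Summed over the libraries of a group, Tph1 reads were assigned to a coding transcript of 1762 bases for 96.9% of counts in KO/PEG and 95.7% in KO/NTZ, and for 88.8% in WT/NTZ and 53.4% in WT/PEG. In WT/PEG the rest went mostly to transcripts of 1134 bases (26.02%) and 1217 bases (10.2%), both annotated as targets of nonsense-mediated decay, but those shares rest on 38.2 and 14.9 estimated counts summed over the 11 libraries. The coding transcript was higher in KO/PEG than in WT/PEG by 2.25 ± 0.48 log2 (edgeR adjusted p = 0.000136).

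The library pattern of Tph1 was most like that of the mucosal mast cell protease genes. Mcpt1 (r = 0.73) and Mcpt2 (r = 0.64) came first, followed by Chil4 (r = 0.59), Aqp5 (r = 0.57) and Batf3 (r = 0.56), over 44 libraries with group means removed. With the mast cell gene Cpa3, r of Tph1 was 0.50. For the rest of the mast cell genes listed below, r with Tph1 is not reported here. Against Chga and Hdc, genes of ECL cells, it was -0.23 and -0.30. Values for other enterochromaffin cell genes are not reported here, apart from Ddc below. Of 9 mast cell genes, 7 were higher and 1 lower in KO/PEG than in WT/PEG, with a median log2 fold change of 1.105 beside -0.00288 over all genes. The shares over all genes tested were 37.5% higher and 37.2% lower. Mcpt1 differed by 3.71 ± 0.40 (edgeR adjusted p = 1.40e-10) and rose from a mean of 7.41 to 96.3 CPM. Mcpt2 differed by 2.26 ± 0.22, and Cpa3, carboxypeptidase A of mast cell granules, by 1.06 ± 0.21. Kit, which interstitial cells of Cajal share with mast cells, was lower (-1.71 ± 0.19), and Ms4a2, a chain of the IgE receptor, did not pass (0.06 ± 0.25). The summed level of the 9 genes was between 107 and 494 CPM in KO/PEG and between 159 and 506 CPM in KO/NTZ, beside 79.8 to 135 CPM in WT/PEG and 89.1 to 133 CPM in WT/NTZ. Different genes make up most of this sum in the 2 genotypes. Kit had a mean of 67.1 CPM in WT/PEG and 20.5 CPM in KO/PEG. Mcpt1 and Mcpt2 had means of 7.41 and 13.7 CPM in WT/PEG and of 96.3 and 65.9 CPM in KO/PEG. The part of mast cells in the Tph1 values was not tested.

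Ddc (chr11:11814101-11898144, minus strand), the aromatic amino acid decarboxylase that also makes dopamine, had a lowest, median and highest value of 8.11, 11.8 and 13.99 CPM in WT/PEG and of 8.07, 9.83 and 12.3 CPM in WT/NTZ. In KO/PEG these were 12.0, 19.9 and 30.6 CPM, and in KO/NTZ 9.83, 18.2 and 33.3 CPM. Above the whole WT/PEG range lay 12 of the 13 KO/PEG libraries, while 3 of 11 KO/NTZ libraries lay within the WT/NTZ range. The difference was 0.93 ± 0.17 log2 for KO/PEG versus WT/PEG (edgeR adjusted p = 5.92e-06) and 0.93 ± 0.19 for KO/NTZ versus WT/NTZ (edgeR adjusted p = 3.19e-05). Ddc did not pass between KO/NTZ and KO/PEG (-0.18 ± 0.17, edgeR adjusted p = 0.494) or between the WT groups (-0.18 ± 0.19, edgeR adjusted p = 0.933).

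The Ddc difference did not pass without Ddc-206, a transcript of 964 bases annotated as not coding for protein. Ddc-206 made up 38.9% of Ddc counts in KO/PEG and 45.9% in KO/NTZ beside 13.5% in WT/PEG and 17.2% in WT/NTZ, and was higher in KO/PEG than in WT/PEG by 2.52 ± 0.46 log2 (edgeR adjusted p = 1.23e-05). The coding transcripts Ddc-201 (-0.13 ± 0.96), Ddc-210 (0.84 ± 0.71) and Ddc-202 (0.42 ± 1.11) did not pass, with wide errors. Without Ddc-206, Ddc differed by 0.37 ± 0.25 between KO/PEG and WT/PEG (edgeR adjusted p = 0.186) and by 0.25 ± 0.28 between KO/NTZ and WT/NTZ (edgeR adjusted p = 0.427). Ddc-206 was left out after its values were seen, and its larger share in KO libraries lowers their sums more. It lies at chr11:11814103-11822921, within the span of these coding transcripts, and how reads were divided between them was not tested. The fit without Ddc-206 therefore cannot tell whether the coding transcripts differ. The share of Ddc-206 in KO libraries also moved with the length slope (r = -0.80, rho = -0.82, permutation p = 1e-05 for each, n = 24, and r = -0.80 without 2 libraries). The genotype difference of summed Ddc was larger with the slope as a covariate, at 1.48 ± 0.27 between KO/PEG and WT/PEG (edgeR adjusted p = 4.37e-05) and 1.41 ± 0.26 between KO/NTZ and WT/NTZ (edgeR adjusted p = 9.26e-05). Without the KO libraries of a slope under -0.2 the values were 1.08 ± 0.11 (edgeR adjusted p = 1.08e-09) and 1.38 ± 0.13 (edgeR adjusted p = 6.52e-10). The genes most like Ddc were Sh3yl1 (r = 0.83), Sult1b1 (r = 0.82), Stxbp3 (r = 0.82), Elovl7 (r = 0.80) and Snx7 (r = 0.80), none of them a serotonin gene, and r between Ddc and Tph1 was -0.18.

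**Figure D4:**
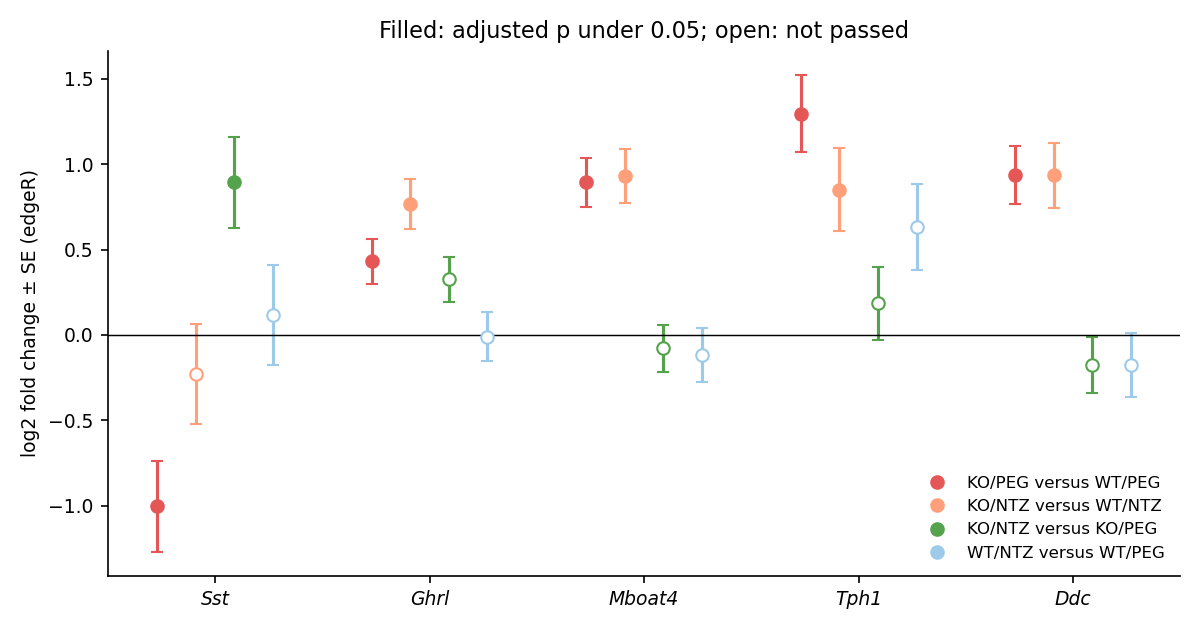
Log2 fold change ± SE of the 5 tested genes in 4 comparisons, with filled points for an adjusted p under 0.05. The genotype differences of Mboat4, Tph1 and Ddc are all above 0.8, Sst is the member with a filled point for KO/NTZ versus KO/PEG, and no point for WT/NTZ versus WT/PEG is filled.

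Of 18 serotonin genes, 11 passed the filter, of which 5 were higher and 3 lower in KO/PEG than in WT/PEG. Over all genes tested, 37.5% were higher and 37.2% lower in that comparison. Gch1, which makes the biopterin cofactor of Tph1, rose by 2.15 ± 0.17 log2 (edgeR adjusted p = 4.62e-14), and Qdpr, which recycles that cofactor, by 0.32 ± 0.07. Maoa, which breaks serotonin down, rose by 0.49 ± 0.22, and Maob fell by 0.77 ± 0.20. The receptor genes Htr3a (-2.08 ± 0.38) and Htr2b (-1.23 ± 0.48) were lower. In KO/NTZ versus KO/PEG, Slc18a2, the vesicular monoamine transporter of ECL cells, fell by 0.78 ± 0.21 (edgeR adjusted p = 0.0163), Maoa by 0.84 ± 0.22 and Qdpr by 0.24 ± 0.07, and 0 of the 11 rose. There 2.97% of all genes tested rose and 2.6% fell. Slc18a1, the vesicular transporter of enterochromaffin cells, passed in neither comparison (0.19 ± 0.22 and -0.45 ± 0.22). The serotonin transporter gene Slc6a4 reached 6 counts in a library and was not tested, and Tph2, the neuronal hydroxylase, reached 1.

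Gastrin was at or near 0 in most libraries, with counts in a few of them. Gast (chr11:100334407-100336996) had at least 3 counts in 3 of 11 WT/PEG, 3 of 9 WT/NTZ, 2 of 13 KO/PEG and 6 of 11 KO/NTZ libraries. The highest library was at 14.6 CPM (272 counts) in WT/PEG, 40.0 CPM (352 counts) in WT/NTZ, 0.945 CPM (14 counts) in KO/PEG and 12.1 CPM in KO/NTZ. The groups overlapped at 0, with medians of 0 CPM in WT/PEG and KO/PEG, 0.134 CPM in WT/NTZ and 0.129 CPM in KO/NTZ. The 4 libraries with 100 counts or more, of 3 groups, held 88.7% of all Gast counts. In these 4 libraries Pdx1, a factor of the antrum and duodenum, was between 4.50 and 9.75 CPM, and in the other 40 it was between 0 and 10.4 CPM with a median of 1.16 CPM. The part of antral tissue in these biopsies was not tested. Fitted without the filter on low counts, Gast was lower in KO/PEG than in WT/PEG (-3.72 ± 1.33 log2, edgeR adjusted p = 0.0161) and did not pass between KO/NTZ and KO/PEG (4.11 ± 1.33, edgeR adjusted p = 0.0791), but the KO/PEG group holds 22 counts in all and the WT/PEG group 286, of which 272 are in 1 library.

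The receptors that gastrin and cholecystokinin bind were measurable in every library. Cckbr, the gastrin receptor gene, had means of 18.9 CPM in KO/PEG and 9.52 CPM in KO/NTZ beside 6.24 CPM in WT/PEG and 4.72 CPM in WT/NTZ. It rose by 1.61 ± 0.21 log2 in KO/PEG versus WT/PEG (edgeR adjusted p = 1.50e-08) and fell by 0.98 ± 0.21 in KO/NTZ versus KO/PEG (edgeR adjusted p = 0.00234). Cckar, the cholecystokinin receptor gene, had means of 28.9 CPM in KO/PEG and 12.3 CPM in KO/NTZ beside 94.5 CPM in WT/PEG and 84.3 CPM in WT/NTZ, and was lower in both comparisons (-1.71 ± 0.33 and -1.21 ± 0.34). Grp, gastrin-releasing peptide, passed in neither (-0.28 ± 0.36 and 0.86 ± 0.35).

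Amylin was not detectable at this depth in most libraries. Iapp (chr6:142298423-142303961) summed to 34 counts over the 44 libraries, was at 0 in 22 of them and reached 3 counts in 3. Its highest value was 0.204 CPM. The insulin genes Ins1 and Ins2 were at 0 counts in every library, and 3 counts correspond to at most 0.495 CPM. Of the receptor partner genes, Ramp1 (0.99 ± 0.15 log2), Ramp2 (0.82 ± 0.18) and Ramp3 (1.29 ± 0.21) were higher in KO/PEG than in WT/PEG and Calcrl was lower (-1.999 ± 0.30), while the calcitonin receptor gene Calcr reached 2 counts.

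**Figure D5:**
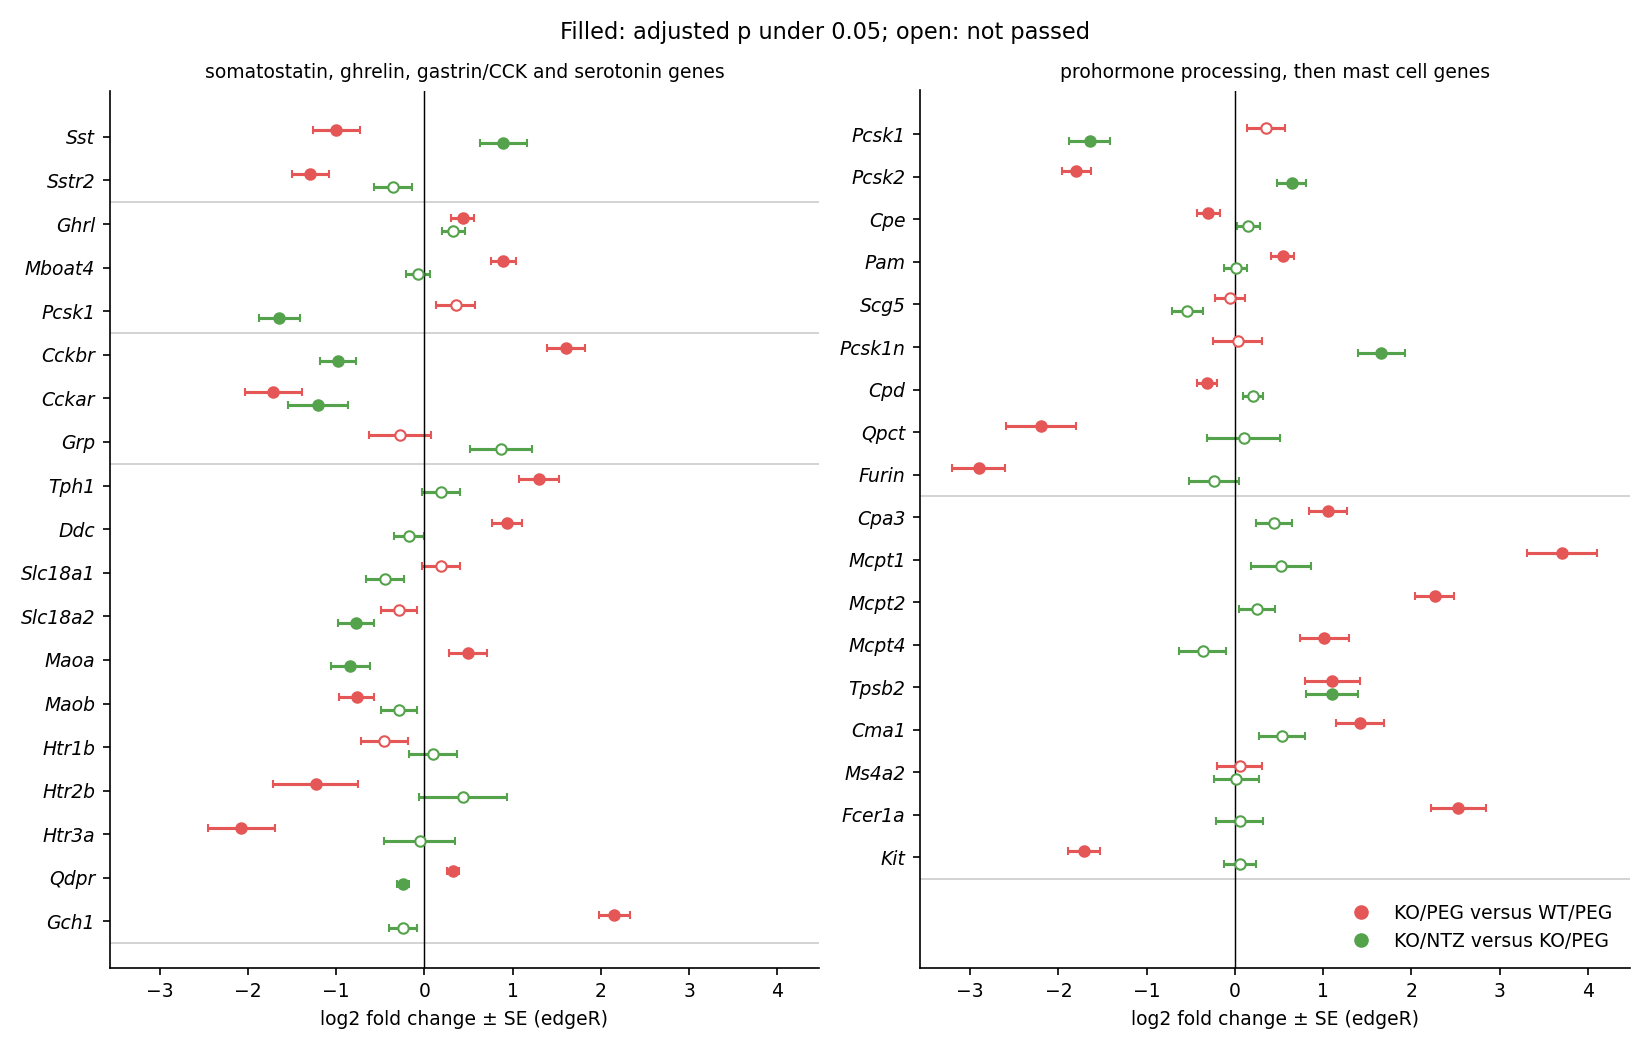
Log2 fold change ± SE for KO/PEG versus WT/PEG (red) and KO/NTZ versus KO/PEG (green), filled where the adjusted p was under 0.05. Left, tested genes of the somatostatin, ghrelin, gastrin and serotonin lists, separated by lines; right, prohormone processing genes and then mast cell genes. Furin, at -2.90, and Mcpt1, at 3.71, were the lowest and highest points.

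The genes that process prohormones moved in both directions. Of 9, Pam, the amidating enzyme that gastrin needs, was higher in KO/PEG than in WT/PEG (0.54 ± 0.13 log2), and Pcsk2 (-1.80 ± 0.16), Furin (-2.90 ± 0.30), Qpct (-2.20 ± 0.40), Cpe (-0.30 ± 0.13) and Cpd (-0.32 ± 0.11) were lower. Pcsk2, the convertase that yields the short form of somatostatin, rose in KO/NTZ versus KO/PEG (0.64 ± 0.16, edgeR adjusted p = 0.0129), as did Pcsk1n (1.66 ± 0.27). The median of the list was -0.30 for KO/PEG versus WT/PEG beside -0.00288 over all genes. In that comparison 37.5% of all genes tested were higher and 37.2% lower. Of 18 tested transcription factors of the endocrine lineage, 3 were higher and 10 lower in KO/PEG than in WT/PEG. Their median was -0.73, beside -0.00288 over all genes. Fev, a factor of serotonin cells, was among the 3 that were higher (0.88 ± 0.28, edgeR adjusted p = 0.00516). Isl1 (-1.02 ± 0.23) and Neurod1 (-0.97 ± 0.37) were lower. In KO/NTZ versus KO/PEG, where 5.56% of all genes tested passed, Insm1 was the 1 factor that did, and it fell by 0.81 ± 0.25.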

How the data were processed

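The authors quantified single reads of stranded mRNA libraries from gastric corpus against GRCm38 transcripts with kallisto (version 0.42.4 in the submitters' processing notes) and deposited an estimated count for each of 94080 transcripts in 44 libraries, without normalization. The strand setting is not given in the sources used here. Genes lie on the opposite strand at Ghrl, Mboat4, Ddc and Iapp, and without strand their reads cannot be told apart. Transcripts were paired with GENCODE vM21 names (1708 were not, holding 0.329 to 1.30% of counts), summed per gene and rounded. The members and gene lists were chosen with earlier results of these data known.

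Genes were kept with filterByExpr (minimum count 10, minimum total 15), normalized by TMM and tested in edgeR 4.0.16 (R 4.3.3). All 44 libraries were in the fit, with 4 group means, and the quasi-likelihood test was adjusted by Benjamini-Hochberg over all 14901 genes, at 0.05. The study's own Sleuth test was not repeated. SE is the absolute log2 fold change over the root of F. CPM uses TMM-scaled totals; TPM uses annotated lengths. The floor of 3 counts covers counting error only. Correlations were permuted 100000 times within groups, two-sided. The genes named were the 7 members, Atp4b, the 5 genes most alike for each tested member, receptors, transporters and list examples by smallest p; Pgc, and other list genes given for their role, were chosen after their values were seen, and a few genes that the rule names are not reported here. Sequences are from GENCODE vM21 and RefSeq (6 of 7 members had a promoter entry).

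Animal numbers come from the labels, and each library was used as 1 sample; where 2 libraries are of 1 animal, p-values cover less than the spread between animals. A pair of WT/PEG libraries shares 1 animal number (chi-square 17.6 per degree of freedom, rank 11 of 55 pairs), and 110 is on libraries of both KO groups. On simulated data for KO/NTZ versus KO/PEG, with 200 of 14901 genes changed, edgeR made 181 calls, 3.87% of them false, and found 78% of 2-fold and 96% of 4-fold changes. Apart from those changes, the simulation gave each gene the same mean and spread in every group. It therefore does not cover a spread that differs between KO and WT libraries, nor the length slope. Alternatives were RLE, upper-quartile or no normalization, no filter, the length slope as covariate, mitochondrial genes left out, only the groups compared, the WT/PEG pair summed, animals 110 left out, animal-number subsets, the highest transcript, limma-trend (limma 3.58.1) and DESeq2 1.42.0. Leaving out Ghrl-207 and Ddc-206, the KO libraries with a slope under -0.2, or library 46 was chosen after seeing the data. Python 3.11.15 and matplotlib 3.10.9 were used.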

Additional observations from a re-analysis of the deposited data

Results flagged for a closer look

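In 4 genes of the pathway and marker lists the response to NTZ differed by genotype, by the test of the difference itself in the fit across all genes. For Pcsk1, the convertase, the NTZ effect in KO minus that in WT was -1.39 ± 0.33 log2 (edgeR adjusted p = 0.0256), with -1.65 in KO and -0.25 in WT mice. The difference was 1.57 ± 0.41 (edgeR adjusted p = 0.0426) for Pcsk1n, an inhibitor of that convertase, with 1.66 in KO and 0.08 in WT mice. For the ECL cell genes Hdc, which makes histamine, and Chga it was -1.22 ± 0.31 (edgeR adjusted p = 0.0391) and -0.91 ± 0.22 (edgeR adjusted p = 0.0302). In the study's own transcript results for NTZ in KO mice, Pcsk1 was higher and Pcsk1n lower, opposite to the directions found here. Hdc and Chga were lower there, as they were here. The cause of this conflict was not tested. The alternatives that keep all 4 groups were fitted for all genes tested, but the values of these 4 genes under them are not reported here. How stable these 4 calls are is therefore not shown. The number of genes that pass the test of the difference changed widely with the setting, as given in the next section.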

How the results depend on the processing

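Most results kept their direction and their side of the threshold. Of the values for gene counts and members, 336 did so under the alternatives planned and 78 under those chosen after seeing the data. With the length slope as covariate 4684 genes were called for KO/PEG versus WT/PEG, 3230 for KO/NTZ versus WT/NTZ, 97 for WT/NTZ versus WT/PEG and 438 for the interaction. KO/NTZ versus KO/PEG gave 267 genes with only those groups, 101 with animals numbered below 100, 377 without KO libraries of a slope under -0.2 and 1249 with DESeq2. WT/NTZ versus WT/PEG gave 0 genes with only those groups by edgeR (2118 at an unadjusted p under 0.05), 2 with limma-trend and 892 with animals numbered 100 or above. The interaction gave 8 without the KO libraries of a slope under -0.2, 53 with limma-trend and 274 with DESeq2. With library totals only, the median log2 fold change of all genes for KO/PEG versus WT/PEG moved from -0.00288 to 0.290 and the share of called genes that were higher from 50.2 to 71.0%. That share went from 53.3 to 36.9% for KO/NTZ versus KO/PEG, from 49.2 to 60.7% for KO/NTZ versus WT/NTZ and from 25.2 to 6.51% for the interaction.

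For KO/PEG versus WT/PEG, Sst was -0.43 in animals numbered 100 or above and -2.02 with the slope covariate. Ghrl was 0.70 with library totals, -0.18 with the slope covariate, 0.20 without Ghrl-207, 0.18 without KO libraries of a slope under -0.2 and 0.23 for its highest transcript. Mboat4 was 0.47 with the covariate, and Ddc 1.48 with it and 0.37 without Ddc-206. For KO/NTZ versus KO/PEG, Sst was 0.88 without the filter, 0.89 with only those groups, 0.95 without the KO libraries of a slope under -0.2 and 0.88 for its transcript. Without those libraries Ghrl was 0.46 and passed, and Ddc was 0.14. Ddc was 0.0272 for its highest transcript, and Mboat4 was 0.10 in animals numbered below 100. For KO/NTZ versus WT/NTZ, the covariate gave Sst -1.14, Ghrl 0.20, Mboat4 0.53, Tph1 0.52 and Ddc 1.41, and Ghrl was 0.39 without Ghrl-207. Tph1 was 0.68 without the KO libraries of a slope under -0.2 and 0.90 for its transcript, and Ddc 0.25 without Ddc-206. For WT/NTZ versus WT/PEG, where no member passed, Sst was -0.0376 with the covariate and -0.0146 in animals numbered 100 or above, and Ddc 0.15 for its highest transcript. Ghrl there was 0.00406 with RLE, 0.0183 with the upper quartile, 0.0226 with library totals, 0.0156 with only those groups, 0.000950 without the KO libraries of a slope under -0.2, 0.00405 with DESeq2 and 0.0131 for its highest transcript. In the interaction Mboat4 was -0.00315 with the upper quartile and -0.0865 with library totals, and Ddc 0.0181 with the WT/PEG pair of 1 animal number summed and 0.30 without the KO libraries of a slope under -0.2. Apart from these settings' own construction, which leaves out libraries or transcripts, the cause was not tested. With that pair summed, Ghrl and Tph1 were related in WT libraries (r = -0.63, permutation p adjusted 0.0331).

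No paired analysis was possible because the groups compared share at most 1 animal number, 110. Depth limits Gast and Iapp most, since 3 counts correspond to up to 0.495 CPM, and Tph1, with 6 to 119 counts, next.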

Other observations

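Among the other gut peptide genes, Nmu, neuromedin U, was higher with NTZ in both genotypes, by 3.21 ± 0.60 log2 in KO mice (edgeR adjusted p = 0.000578) and by 3.37 ± 0.66 in WT mice (edgeR adjusted p = 0.00430). It had means of 1.65 CPM in KO/NTZ and 2.43 CPM in WT/NTZ beside 0.166 CPM in KO/PEG and 0.237 CPM in WT/PEG, and reached 76 counts in a library, so its level was low. The WT call was lost with limma-trend (1.99 ± 0.50, limma adjusted p = 0.154), and the adjusted p over its alternatives was between 0.000252 and 0.154 in WT and between 2.32e-05 and 0.0283 in KO mice. In a fit of a comparison's own groups alone, Nmu did not pass the filter on low counts in either comparison. Penk, proenkephalin, rose in KO/PEG versus WT/PEG by 0.87 ± 0.22 and again in KO/NTZ versus KO/PEG by 1.04 ± 0.22, with means of 18.6 CPM in KO/PEG and 38.2 CPM in KO/NTZ beside 10.1 CPM in WT/PEG and 9.58 CPM in WT/NTZ. Pyy (1.88 ± 0.47), Nmb (1.48 ± 0.24) and Gal (1.01 ± 0.35) were higher in KO/PEG than in WT/PEG, and Vip (-1.03 ± 0.30), Nucb2 (-1.14 ± 0.16) and Lep (-2.59 ± 0.83) were lower. Of the 11 tested genes of this list, 5 were higher and 3 lower in that comparison, beside 37.5% and 37.2% of all genes tested. Cck, Gip, Nts and Sct did not pass the filter on low counts. Squamous keratin genes of the forestomach differed widely between libraries, and their summed level reached 2965 CPM in WT/NTZ and 322 CPM in WT/PEG. Of the 5 squamous genes, 0 passed between WT/NTZ and WT/PEG by edgeR, where all 5 values were above 0, from 2.06 ± 0.92 (Trp63) to 3.78 ± 1.21 log2 (Krt4), and 3 (Krt14, Krt4, Trp63) were lower in KO/NTZ than in WT/NTZ. Over all genes tested, 1.03% passed between the WT groups and 72.4% between the NTZ groups. The part of the squamous genes in the Nmu values was not tested. Of 4 ECL cell genes (Hdc, Slc18a2, Cckbr, Chga), 3 were higher in KO/PEG than in WT/PEG and all 4 were lower in KO/NTZ than in KO/PEG. The 4 tested enteric neuron genes and the 3 parietal cell genes were lower in KO/PEG than in WT/PEG. In that comparison 37.5% of all genes tested were higher and 37.2% lower, and in KO/NTZ versus KO/PEG 2.6% were lower.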
